A study of Arabidopsis thaliana with 60 samples.

Results

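The regions described here were stretches of the Arabidopsis thaliana genome that carried 2 histone marks with opposite associations in the same seedlings: H3K27me3, the trimethylation of histone H3 lysine 27, and K4 trimethylation (K4me3). They were chosen by the authors' peak positions, as stretches of at least 400 bp lying under peaks in all 4 Col-0 libraries, the 2 of H3K27me3 and the 2 of K4me3. This gave 1274 segments out of 22449 marked pieces of the Col-0 genome. The others were 6546 pieces under H3K27me3 alone and 14629 under K4me3 alone, chosen in the same way from both libraries of one mark with no peak of the other mark. Because Col-0 peaks chose the segments, the presence of both marks in Col-0 is a description and not a result.

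H3K27me3 is set by Polycomb repressive complex 2 (PRC2), whose catalytic subunit in seedlings is CLF or SWN, and is found over silent developmental genes. K4me3 is set by trithorax-type methyltransferases and is found near the start of transcribed genes. REF6 is a demethylase that removes H3K27me3, and ULT1, which has a SAND domain, acts with the trithorax group. A stretch that carries both marks is often called bivalent. In whole seedlings, both marks in the same cells and each mark in different cells cannot be told apart, and neither can fewer marked cells and less mark per cell.

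The libraries were 36 ChIP and 24 input libraries of seedlings 8 days old, with 2 libraries per genotype and mark. The Ler family consisted of Ler, the loss-of-function alleles ult1-2 and ult1-3, and 35S::ULT1, in which a viral promoter active in most tissues drives ULT1, all described as Ler background. Col-0 and ref6-3, a loss-of-function allele of REF6 in Col-0 background, completed the single-end lists. A paired-end series profiled H3K27me3 alone in Col-0 background, in Col-0, ult1-3, swn-7, clf-28, ult1-3 swn-7 and ult1-3 clf-28, with 1 deposited list per genotype. The labels give a daily light period, longer than the dark period, for the paired-end seedlings and none for the single-end ones. The antibody field of the labels names histone H4 for the K4 libraries while the titles give K4 alone, so the mark is called K4me3 throughout. Several ChIP reactions from the same nuclear extract went into each library. The labels do not state that a genotype's 2 libraries came from separate plants, so p-values measure the spread between libraries, which may be technical.

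Among single-end lists, those of H3K27me3 had between 6379 and 9945 peaks, most in 35S::ULT1, and between 8.79 and 22.4 M reads (M, the prefix mega) inside peaks. The K4me3 lists had between 15527 and 16510 peaks and between 16.5 and 22.5 M reads inside them. Paired-end lists held 3703 to 5987 peaks and their depth is unknown. In every Ler-family genotype the K4me3 list numbered 1 held fewer peaks than the list numbered 3.

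The segments were short islands inside longer H3K27me3 domains. They totalled 1095.4 kb, which was 4.92% of the sequence under H3K27me3 in both Col-0 libraries and 5.58% of that under K4me3. Their median width was 800 bp (quartiles 600 and 1000 bp, range 400 to 3600 bp). At the threshold, 199 segments were exactly 400 bp wide and a further 176 stretches of 200 bp lay just outside it. Chromosomes 1 to 5 held 340, 210, 233, 182 and 309 segments. Segments occurred in 1225 of 6394 H3K27me3 domains (19.2%) and in 1270 of 15879 K4me3 domains (8%). In 775 segments the K4me3 domain lay wholly inside the H3K27me3 domain, in 359 the domains were staggered, and in 140 the H3K27me3 domain lay inside the K4me3 domain. The H3K27me3 domains that held segments were 2800 bp wide at the median, those that held pieces under H3K27me3 alone 2600 bp, and all H3K27me3 domains 2200 bp.

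Most segments lay wholly within gene bodies. In all, 1011 segments (79.4%) were wholly inside protein-coding genes, against 13.2% of the pieces under H3K27me3 alone and 35.1% of those under K4me3 alone. A gene end, of either kind since the gene table gives no strand, was present in 17.3% of segments, 68.3% of H3K27me3 pieces and 66.8% of K4me3 pieces. The H3K27me3 pieces are wider, with a median of 2200 bp. K4me3 pieces have a median of 1000 bp and segments one of 800 bp. The mean share of a piece's length inside genes was 93.1% for segments, 91.3% for K4me3 pieces and 48.1% for H3K27me3 pieces. Wholly outside genes were 5.02% of segments, 2.13% of K4me3 pieces and 19.2% of H3K27me3 pieces. A gene was counted as belonging to a segment when they shared at least 200 bp. By this measure 1223 of 27444 protein-coding genes (4.46%) belonged to 1207 segments, and 67 segments held no protein-coding gene. Over these genes H3K27me3 peaks covered a median of 93.2% and 89.7% of the gene body in the 2 Col-0 libraries, and K4me3 peaks 54.1% and 58.3%. H3K27me3 thus reached over more of the gene than K4me3.

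The K4me3 peaks that held segments were weak for their lists, while the H3K27me3 peaks were not. Peak read density, the authors' reads in a peak per kb of its width and per M reads in all peaks of the library, had a median of 29.6 and 31.2 at segments in the K4me3 libraries of Col-0, against 51.3 and 50.1 at pieces under K4me3 alone. The segment medians exceeded 13.5% and 15.8% of all peaks of those lists. For H3K27me3 the densities were 31.7 and 34.9 at segments and 33.7 and 35.3 at pieces under H3K27me3 alone, and the segment medians exceeded 53.9% and 54.4% of all peaks. Across all 12 libraries of each mark, the segment median exceeded 13.5% to 18.2% of the peaks of its list for K4me3 and 53.9% to 71.3% for H3K27me3. The Ler-family and ref6-3 libraries took no part in choosing the segments, and in each of them the K4me3 median was lower at segments than at pieces under K4me3 alone.

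Regulators of leaf shape, of meristems and of auxin were the listed gene groups with the most segments. The lists were chosen with earlier results of these data known, so their shares are a description and not a test. Of 13 gene lists with 283 distinct genes found in the gene table, 40 genes belonged to a segment. Of 20 genes of leaf polarity and growth, 10 did (50%, against 4.46% of all protein-coding genes). These were the abaxial identity factors KAN1, KAN2 and KAN3, the YABBY factors YAB1, YAB2, YAB3 and YAB5, which also mark the lower side of leaves, and TCP2, TCP10 and TCP24, which restrain cell division in growing leaves. The auxin list had 8 of 27 (29.6%), among them the efflux carriers PIN2 and PIN7, the influx carrier LAX3 and the auxin synthesis genes TAA1, YUC2, YUC6 and YUC8. The meristem and boundary list had 7 of 26 (26.9%), with the KNOX homeobox genes KNAT1, KNAT2 and KNAT6, their BELL partner PNY, the axillary meristem gene LAS, PLT3 and WOX1. Flowering time had 6 of 32 (18.8%), the repressors FLC, MAF4, SVP and SNZ, the promoter SOC1, and AGL15. The gene table lists YAB1 as AFO, KAN1 as KAN, PIN2 as EIR1, SOC1 as AGL20, PNY as RPL and PLT3 as AIL6.

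Other developmental lists were mostly under a single mark. Of 26 floral identity genes, 22 were under H3K27me3 alone and only SEP4 and HEC1 belonged to a segment. Seed and embryo genes had 13 of 18 under H3K27me3 alone and DOG1, which sets seed dormancy, in a segment. Root patterning genes had 9 of 14 under H3K27me3 alone and SHR in a segment. The hormone response list had RGL3, 1 of 19, and the photosynthesis list had PSBQ-2 and RBCS2B, 2 of 20. Of 29 Polycomb and trithorax genes, EMF1 and ULT1 itself belonged to a segment. None of 25 light and circadian genes, 15 cold and dehydration genes or 13 housekeeping genes did, and 24, 10 and 13 of these were under K4me3 alone.

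Several families named by the first letters of their symbols stood out when the genes were counted, a choice made after the counts were seen. All 4 NGA genes, which encode B3-domain factors of leaf and style growth, belonged to segments, as did 5 of 7 KNAT genes, 5 of 9 IDD zinc finger genes and 7 of 18 OFP genes. Of 21 KCS genes, which encode the enzymes that lengthen fatty acids for cuticular wax, 10 did. WRKY factors of the stress response had 17 of 67, glucosyltransferases of the UGT family 12 of 58 and cytochrome P450 genes 39 of 229. NAC factors had 6 of 79 (7.59%) and MYB factors 15 of 120 (12.5%), against 4.46% of all protein-coding genes. The IGMT genes of indole glucosinolate synthesis had 4 of 5, and these are near-identical tandem copies whose reads cannot be assigned with certainty.

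Among the segments without a protein-coding gene, 15 held a microRNA gene. In all, 18 of 326 annotated microRNA genes belonged to a segment (5.52%, against 4.46% of protein-coding genes). They came from families with roles in development: MIR156a, MIR156b, MIR156c and MIR156d, which hold plants in the juvenile phase, MIR165a, MIR166a, MIR166b and MIR166e, which act on HD-ZIP III genes of the upper leaf side, MIR160a, MIR167a and MIR167d, which act on auxin response factors, and MIR164b, MIR171b, MIR171c, MIR172b and MIR393b. The remaining genes were MIR414 and MIR8182. At the 15 segments without a protein-coding gene, K4me3 stayed in both ref6-3 libraries at 15 and H3K27me3 at 13. Over all segments the shares were 95.5% for K4me3 and 91.6% for H3K27me3. The segment over MIR156c (chromosome 4, 15414801 to 15416000) had H3K27me3 in neither Ler library and K4me3 in both. The segment over MIR172b (chromosome 5, 1188001 to 1188600) was the reverse, with H3K27me3 in both Ler libraries and K4me3 in neither.

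The widest segment, 3600 bp on chromosome 3 (5579401 to 5583000), lay over PBP1 and JAL31, which encode jacalin-type lectins. The next, 3000 bp on chromosome 3 (9639801 to 9642800), lay over the cytochrome P450 genes CYP71B34 and CYP71B35. Segments of 2600 bp lay over AT1G51805, AT1G61300, AT1G71695 and the pair AT2G35820 and AT2G35830. The widest segment of a listed gene was that of TCP2, 2400 bp on chromosome 4 (10163201 to 10165600). There H3K27me3 cover was 100% in all 12 single-end libraries, and K4me3 cover was 100% in all but 35S::ULT1 library 1, where it was 91.7%.

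The next comparison asked which mark stayed at the segments when REF6 was lost. A mark was called kept in a genotype when its peaks covered at least 50% of the segment in both libraries, lost when they did so in neither, and split otherwise. In ref6-3, H3K27me3 was kept at 1167 segments (91.6%, against 88.5% of all Col-0 H3K27me3 pieces) and lost at 58 (4.55%, against 5.19%). K4me3 was kept at 1217 segments (95.5%, against 98.9% of all Col-0 K4me3 pieces) and lost at 17 (1.33%, against 0.421%). Both marks stayed at 1112 segments. K4me3 alone stayed at 57, H3K27me3 alone at 17, and no segment lost both. The remaining 88 were split in at least one mark. Since the rule required all Col-0 libraries and none of ref6-3, these counts can show loss only and were not tested. Without ref6-3 library 2 the losses numbered 103 for H3K27me3 and 53 for K4me3.

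**Figure D1:**
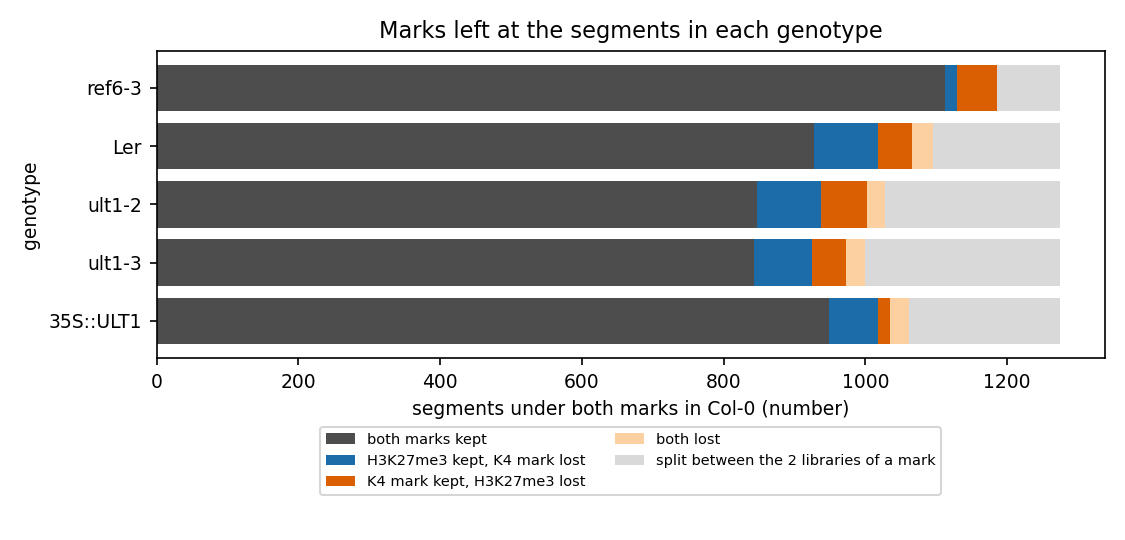
Number of segments (x axis) in each of 5 states for ref6-3 and the 4 Ler-family genotypes (y axis), where kept and lost mean at least 50% cover in both libraries or in neither. Both marks stayed at 1112 segments in ref6-3 and at 843 to 949 in the Ler family.

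Loss of H3K27me3 in ref6-3 went with domain width, at segments and at pieces under H3K27me3 alone. In Col-0 domains of at most 1000 bp, 26 of 241 segments lost it (10.8%, against 15.4% of pieces under H3K27me3 alone), and in domains over 4 kb 8 of 466 (1.72%, against 1.41%). The domains of the 58 had a median width of 1400 bp. Among the 58, the widest segments at genes with a symbol included that of the Aux/IAA auxin repressor IAA28 (chromosome 5, 9033601 to 9034800). Others were at the receptor-like protein gene RLP12, the defence regulator WRKY40, the serine carboxypeptidase-like gene scpl10 and the LOB-domain gene LBD22. At each, H3K27me3 cover was 100% in both Col-0 and 0% in both ref6-3 libraries, and K4me3 cover was 100% in all 4. At IAA28, H3K27me3 was also 100% in all 8 Ler-family libraries, while K4me3 there was 0% in each library numbered 1 and 50% to 83.3% in each numbered 3. The 17 segments that lost K4me3 in ref6-3 lay in K4me3 domains with a median width of 600 bp. Of those at genes with a symbol, the widest were at the cytochrome P450 genes CYP71B4 and CYP96A4 and the pair bZIP48 and AT2G04137. Others were at the nucleolin gene NUC-L2 and the glutaredoxin gene ROXY2. At CYP71B4 a part of K4me3 remained, with 42.9% cover in both ref6-3 libraries, and at the other 4 it was 0% in both.

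Among listed genes, 39 of 40 kept H3K27me3 in ref6-3 and 39 of 40 kept K4me3. The exceptions were RGL3, a DELLA repressor of gibberellin responses, whose H3K27me3 cover was 0% in both ref6-3 libraries, and DOG1, whose K4me3 cover was 0% in one and 100% in the other. Of the 39 listed genes that kept H3K27me3 in ref6-3, its peak read density was above both Col-0 libraries in both ref6-3 libraries at 5 (12.8%, against 19.7% of 1167 segments) and below them at 16 (41%, against 35.8%), with no test. As examples chosen after the values were seen, the density at FLC, the main repressor of flowering, was 60.4 and 55.3 in the Col-0 libraries and 33.4 and 21.6 in the ref6-3 libraries, and at AGL15 it was 26.0 and 19.1 in Col-0 and 55.1 and 52.0 in ref6-3.

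Between Col-0 and Ler, 2 natural accessions, the segments lost K4me3 more often than H3K27me3. In Ler, H3K27me3 was kept at 1178 segments (92.5%, against 89.5% of all Col-0 H3K27me3 pieces) and lost at 82 (6.44%, against 8.5%). K4me3 was kept at 986 segments (77.4%, against 94.3% of all Col-0 K4me3 pieces) and lost at 122 (9.58%, against 2.72%), or at 274 without Ler library 3. Of the 122 segments without K4me3 in Ler, 106 had kept it in ref6-3, which shares the Col-0 background (86.9%, against 95.5% of all segments). Of the 82 without H3K27me3 in Ler, 61 had kept it in ref6-3 (74.4%, against 91.6% of all segments). In the paired-end Col-0 list 41 of the 82 had it (50%, against 72.2%). In 35S::ULT1, which is of Ler background, 30 of the 82 had it (36.6%, against 95.3%). Accession, harvest and sequencing cannot be told apart in this comparison, since each library set belongs to one family.

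**Figure D2:**
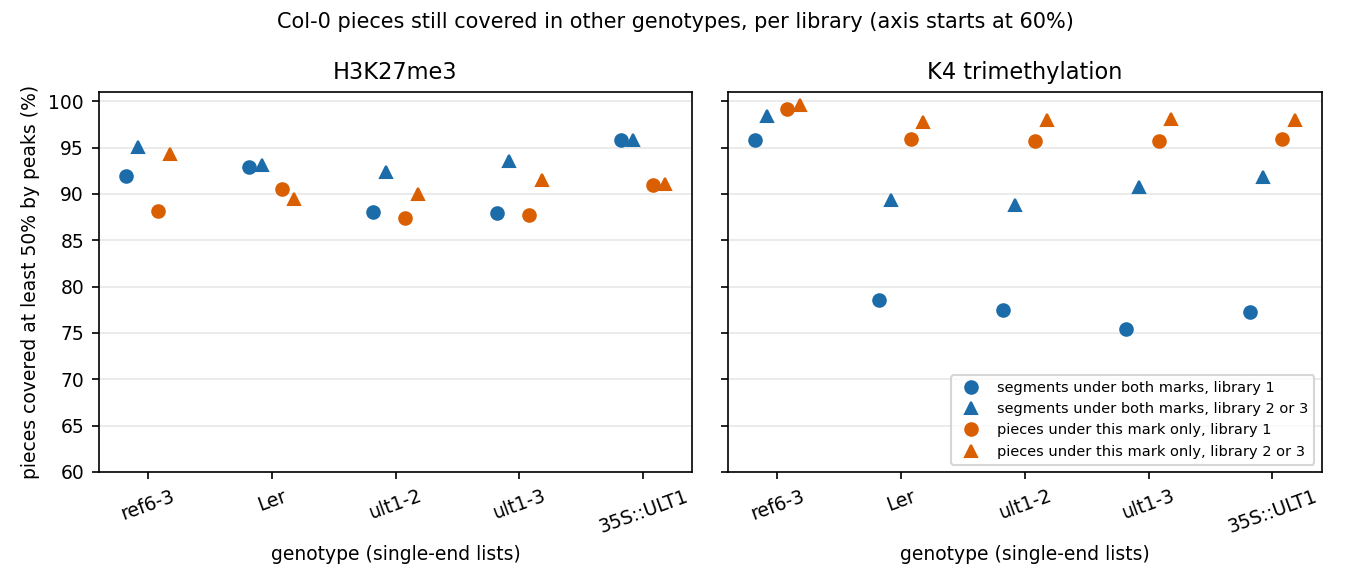
Share of Col-0 pieces still covered at least 50% by peaks of H3K27me3 (left) and K4me3 (right) in each library (y axis, starting at 60%) by genotype (x axis), for segments under both marks and for pieces under the plotted mark alone; circles are libraries numbered 1 and triangles those numbered 2 or 3. In the Ler family the lowest points are K4me3 over segments in libraries numbered 1, at 75.4% to 78.5%. Those numbered 3 have 88.8% to 91.8%, within the range of the H3K27me3 points.

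The K4me3 shares moved with the library number. K4me3 stayed at 78.5% of segments in Ler library 1 and 89.3% in library 3, at 77.5% and 88.8% in ult1-2, at 75.4% and 90.7% in ult1-3, and at 77.3% and 91.8% in 35S::ULT1. In ref6-3 the shares were 95.8% and 98.4%. Every Ler-family library was thus below both ref6-3 libraries. In the same libraries K4me3 stayed at 95.7% to 98.1% of the pieces under K4me3 alone in the Ler family. The part of the library in these losses was not tested. K4me3 staying also went with the strength of the Col-0 peak: in Ler it was kept at 56.5%, 81.4% and 94.4% of segments in the lowest, middle and highest of 3 equal groups by Col-0 K4me3 peak read density.

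SEP4 and DOX1 had K4me3 in Col-0 and ref6-3 and in no library of the Ler family. At SEP4 (chromosome 2, 1129201 to 1130000), a MADS-box gene of floral organs, K4me3 cover was 100% in both Col-0 and both ref6-3 libraries and 0% in all 8 Ler-family libraries, while H3K27me3 cover was 100% in all 12. At DOX1, an alpha-dioxygenase of the defence response (chromosome 3, 160801 to 162800), K4me3 cover was 100% in Col-0, 70% and 100% in ref6-3 and 0% in all 8 Ler-family libraries, with H3K27me3 at 100% throughout. Another of the widest segments without K4me3 in Ler, at the cytochrome P450 gene CYP87A2, had cover of 75% in ult1-2 library 3 and 62.5% in both 35S::ULT1 libraries. K4me3 was lost in all 4 Ler-family genotypes at 65 segments (5.1%) and H3K27me3 at 37 (2.9%).

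Among the widest segments, that of AT1G61300 (2600 bp) had H3K27me3 cover of 0% in all Ler, ult1-2 and ult1-3 libraries. Cover there was 15.4% in both 35S::ULT1 libraries and 100% in both Col-0 libraries. Of segments at genes with a symbol, the widest that lost H3K27me3 in Ler lay at RK2, UGT73C6 and FUT4. These encode a receptor kinase, a glucosyltransferase and a fucosyltransferase. At RK2 H3K27me3 cover was 0% in both Ler and both ult1-2 libraries, 0% and 42.9% in ult1-3 and 85.7% in both 35S::ULT1 libraries. At UGT73C6 it was 0% in both Ler libraries, 0% and 100% in each ult1 allele and 100% in both 35S::ULT1 libraries. FUT4 had 83.3% in both ult1-2 libraries and 0% in the other 6. RK2 and UGT73C6 belong to families with close copies, whose reads may be shared.

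The Ler-family comparisons asked how loss or excess of ULT1 changed the marks, and none of these libraries had a part in choosing the segments. In all 3 genotypes most segments kept both marks. H3K27me3 was kept at 1121 segments in ult1-2 (88%, against 87% of all Col-0 H3K27me3 pieces) and at 1120 in ult1-3 (87.9%, against 87.5%). It was kept at 1214 in 35S::ULT1 (95.3%, against 91.2%). Losses of H3K27me3 came to 96 segments in ult1-2 (7.54%, against 9.05%), 83 in ult1-3 (6.51%, against 7.95%) and 48 in 35S::ULT1 (3.77%, against 7.58%). K4me3 was kept at 962 segments in ult1-2 (75.5%, against 94% of all Col-0 K4me3 pieces), 954 in ult1-3 (74.9%, against 94%) and 977 in 35S::ULT1 (76.7%, against 94.3%). Its losses came to 118 (9.26%, against 2.51%), 112 (8.79%, against 2.4%) and 97 segments (7.61%, against 2.4%). Without library 3 of the genotype, H3K27me3 losses were 152 in ult1-2 and 154 in ult1-3, and K4me3 losses were 287 in ult1-2, 314 in ult1-3 and 289 for 35S::ULT1. Of the 1178 segments with H3K27me3 in Ler, the mark was lost at 21 in ult1-2 (1.78%, against 1.39% of all H3K27me3 pieces with the mark in Ler), at 15 in ult1-3 (1.27%, against 0.643%) and at 2 under 35S::ULT1 (0.17%, against 1.09%). Of the 986 with K4me3 in Ler, it was lost at 5 in each ult1 allele (0.507%, against 0.08% of all K4me3 pieces with the mark in Ler for ult1-2 and 0.06% for ult1-3) and at 4 under 35S::ULT1 (0.406%, against 0.0333%). The comparisons share the Ler libraries.

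H3K27me3 in 35S::ULT1 also reached pieces that had K4me3 alone in Col-0. It covered 1402 of the 14629 such pieces in both 35S::ULT1 libraries (9.58%) and 750 in ref6-3 (5.13%). In Ler it covered 353 (2.41%), and in the ult1-2 and ult1-3 alleles 238 (1.63%) and 226 (1.54%). The 35S::ULT1 lists had the most peaks of all, and with equal numbers of peaks in every list H3K27me3 was lost at 137 segments in 35S::ULT1, against 134 in Ler.

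Both marks were kept in all 20 single-end libraries outside Col-0 at 673 segments (52.8%), H3K27me3 in all 10 of its libraries at 1026 (80.5%) and K4me3 in all 10 of its own at 834 (65.5%). Of the 40 listed genes, 24 kept both marks throughout, 36 kept H3K27me3 and 28 kept K4me3. In the leaf polarity list, 10 of 10 kept H3K27me3 and 7 of 10 kept K4me3, the exceptions being YAB1, YAB2 and YAB5.

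At the widest segments with a gene symbol that lost H3K27me3 in an ult1 allele, K4me3 stayed. In ult1-2 these were at NAC047, a NAC factor, at ULT1, and at ATHB-15, an HD-ZIP III gene of vascular and meristem growth. H3K27me3 cover at NAC047 was 100% in both Ler libraries, 0% in both ult1-2 libraries, 0% and 100% in ult1-3 and 100% in both 35S::ULT1 libraries. At ATHB-15 it was 80% in both Ler libraries, 0% in both ult1-2 libraries and 0% and 80% in ult1-3. At ULT1 it was 83.3% in both Ler libraries, 0% in both ult1-2 libraries, 66.7% and 83.3% in ult1-3 and 100% in both 35S::ULT1 libraries, and a transgene copy and the native gene cannot be told apart there. K4me3 cover was 100% at all 3 in all 8 libraries. In ult1-3 they were at SRO2, RLP33 and ENP, a gene of auxin-driven organ formation, and K4me3 cover was again 100% in all 8 libraries. SRO2 had H3K27me3 cover of 75% and 50% in Ler, 0% in all 4 ult1 libraries and 100% in both 35S::ULT1 libraries.

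None of these differences in H3K27me3 cover passed limma, fitted over 7566 pieces. It called 0 of 1241 segments in each of ult1-2, ult1-3 and 35S::ULT1 against Ler. At an unadjusted p under 0.05, limma had 23, 19 and 28 segments. Over all pieces the background was 0% in each direction, except 0.0793% higher in ult1-3. Without the floor set on the variance, limma called 21 segments in ult1-2, 22 in ult1-3 and 30 for 35S::ULT1. The 2 segments with H3K27me3 in Ler that lost it in 35S::ULT1 were at AT1G52200 and AT5G57340.

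K4me3 cover was lower in 35S::ULT1 than in Ler at 3 of the 4 YABBY genes, none of which passed the test given below, while H3K27me3 cover was full. The YABBY genes were grouped here after the values were seen. The other listed leaf genes, KAN1, KAN2, KAN3, TCP2, TCP10 and TCP24, kept K4me3 in 35S::ULT1. At YAB5 (chromosome 2, 11305801 to 11306600) K4me3 cover was 100% in both Ler libraries, 75% and 100% in ult1-2, 100% in both ult1-3 libraries and 0% in both 35S::ULT1 libraries. At YAB1 (chromosome 2, 18629601 to 18630600) it was 80% and 100% in Ler and 0% and 40% in 35S::ULT1. At YAB2 (chromosome 1, 2675801 to 2676600) it was 75% and 100% in Ler and 0% and 50% in 35S::ULT1. In all 3 the 35S::ULT1 libraries lay below every other library of the Ler family, Col-0 and ref6-3. YAB3 differed, with 66.7% and 100% in Ler and 83.3% and 100% in 35S::ULT1. H3K27me3 cover was 100% at all 4 genes in all 12 libraries.

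**Figure D3:**
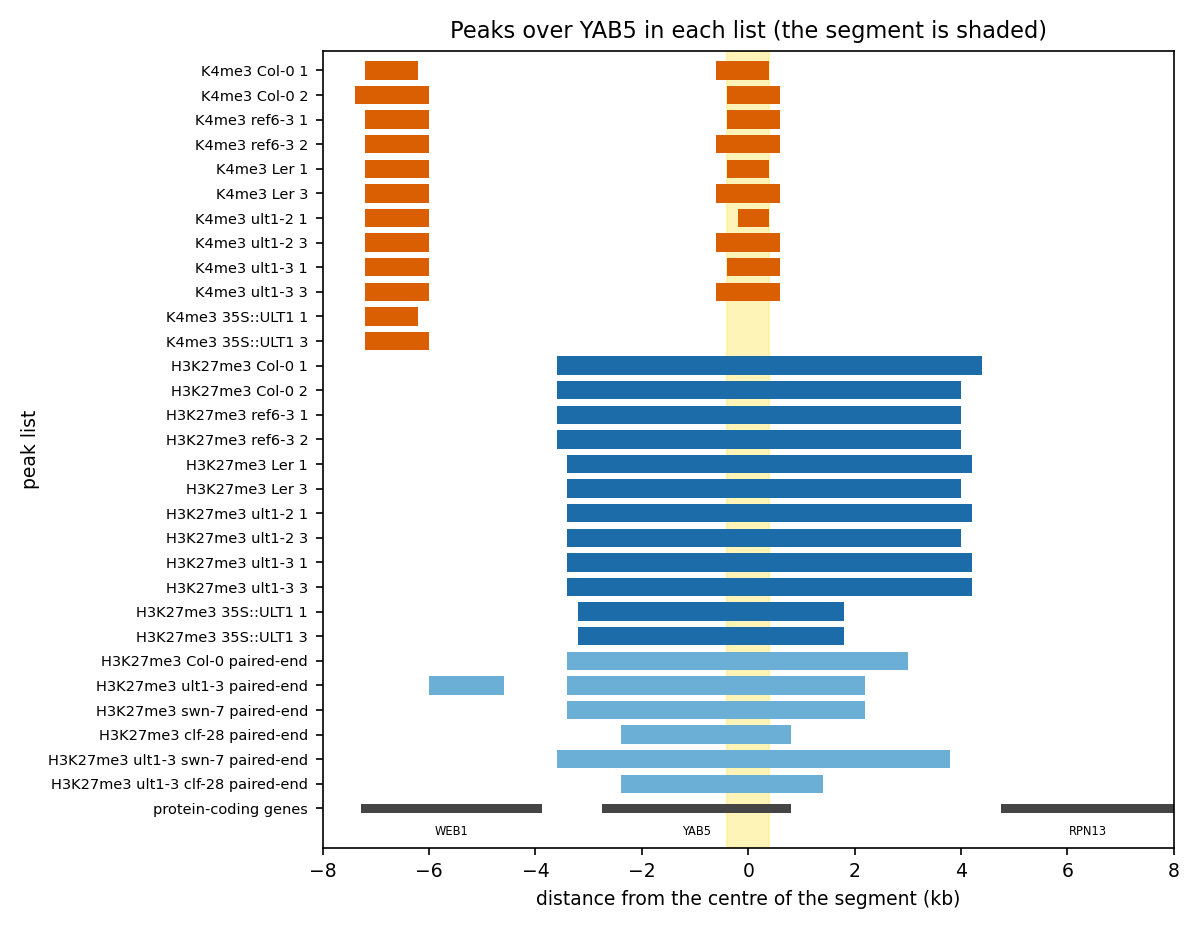
Peaks in each list over 8 kb on either side of the YAB5 segment (shaded), with distance from the segment centre in kb (x axis) and 1 row per peak list (y axis); orange bars are K4me3, dark blue bars single-end H3K27me3 and light blue bars paired-end H3K27me3, and protein-coding genes are at the bottom. The K4me3 peak over the segment is present in 10 of 12 lists and missing from both 35S::ULT1 lists, while H3K27me3 lies over it in every list.

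At no segment did K4me3 cover lower than in Ler pass the test across all pieces. For YAB5 in 35S::ULT1 the limma adjusted p was 0.204, and for YAB1 and YAB2 it was 1. The other segments that kept K4me3 in Ler and lost it elsewhere had limma adjusted p from 0.162 to 1. They included BIA1, a brassinosteroid-inactivating acyltransferase gene, AT3G28270 and AT3G47570 in ult1-2, the cation transporter gene OCT3, CYP89A6 and IGMT2 in ult1-3, and OCT3 and DOG1 in 35S::ULT1. At IGMT2 K4me3 cover was 100% in both Ler libraries, 25% and 100% in ult1-2, 0% in both ult1-3 libraries and 25% and 100% in 35S::ULT1.

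Against Ler, in a fit without the library number as a term, limma on K4me3 cover called 0 of 1212 segments in ult1-2, 3 in ult1-3, all higher, and 0 in 35S::ULT1. Over all 15673 pieces the background was 0.0893% higher and 0.00638% lower in ult1-3 and 0% in the others. With limma at an unadjusted p under 0.05 there were 30, 40 and 33 segments. The 3 were at LBO1, an oxidoreductase of strigolactone synthesis, AT1G27580 and AT3G26470. K4me3 cover at each was 0% in both Ler and both ult1-2 libraries and 100% in both ult1-3 libraries (limma, adjusted p 0.0334, 100 percentage points, SE 21.5 at LBO1 and 22.2 at the others). In 35S::ULT1 it was 0% and 75% at LBO1 and 0% and 66.7% at AT3G26470. None of the 3 was called without Ler library 1, without Ler library 3 or without ult1-3 library 1, where limma gave 0 calls, while it gave 7 without any 1 library of ult1-2 or 35S::ULT1 and 55 without ult1-3 library 3. In ult1-2 the calls numbered 4 without any 1 library of ult1-3 or 35S::ULT1 and 37 without ult1-2 library 3, and in 35S::ULT1 they numbered 3 without any 1 library of ult1-2 or ult1-3.

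In 35S::ULT1, where nearly all segments kept H3K27me3, the density of reads in its peaks differed at many, at a share close to that over all pieces. The density test covered the 1083 segments with at least 50% H3K27me3 cover in all 8 Ler-family libraries. limma called 90 segments higher and 202 lower in 35S::ULT1 than in Ler, 27% of those tested. Over all 6496 pieces 7.34% were higher and 19.3% lower. The median change was -0.05 (log2) over the segments and -0.07 over all pieces. After centring each library on the median of all pieces, the calls were 135 higher and 156 lower.

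**Figure D4:**
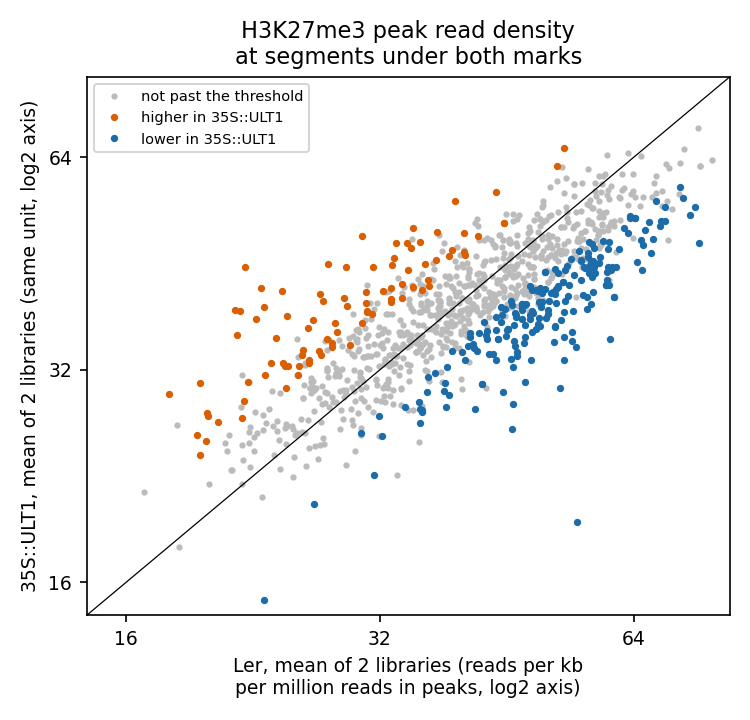
H3K27me3 peak read density in Ler (x axis) and 35S::ULT1 (y axis), each the mean of 2 libraries in reads per kb and per M reads in peaks on log2 axes, with 1 point per segment and the line of equality. The 90 segments called higher lie above the line and the 202 called lower lie below it.

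The segments called higher lay in narrow H3K27me3 peaks and those called lower in broad ones. Median peak width in Ler was 1950 bp for the 90 higher segments and 6950 bp for the 202 lower ones. The peak was wider in 35S::ULT1 than in Ler at 67 of the 90. These widths were not compared over all pieces. The part of peak width and of the larger number of peaks in the 35S::ULT1 lists was not tested. Calls numbered 143 without Ler library 1, 44 without Ler library 3, 75 without 35S::ULT1 library 1 and 58 without 35S::ULT1 library 3.

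Developmental genes were among both groups. Of 36 listed genes in the test, limma called 4 higher and 10 lower, against 90 and 202 of all 1083 segments. The median change of the listed genes was -0.12 (log2), against -0.05 over all segments. All 14 called genes had the same sign after centring, when 11 were still called. The higher ones included AGL15 by 0.76 (log2), HEC1, a bHLH gene of the gynoecium, by 0.50 and TAA1 by 0.44. At AGL15 the density was 25.6 and 21.0 in Ler and 37.3 and 41.3 in 35S::ULT1 (limma, adjusted p 0.00514). At TAA1 it was 33.3 and 32.8 in Ler and 44.8 and 45.2 in 35S::ULT1 (limma, adjusted p 0.00402). The genotypes did not overlap at either gene.

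The lower ones were YAB1, YAB2, YAB5, KAN2, KNAT2, KNAT6, LAS, WOX1, SEP4 and YUC2. At YAB2 the density was 53.9 and 54.6 in Ler and 38.6 and 39.1 in 35S::ULT1, a change of -0.48 (log2; limma, adjusted p 0.00461). At YAB1 it was 65.4 and 70.6 in Ler and 55.3 and 55.6 in 35S::ULT1 (-0.29, limma, adjusted p 0.0446). At YAB5 it was 45.1 and 46.6 in Ler and 40.0 and 39.1 in 35S::ULT1 (-0.21, limma, adjusted p 0.0439). At KAN2 it was 46.2 and 41.8 in Ler and 33.5 and 32.5 in 35S::ULT1 (-0.41, limma, adjusted p 0.00804). The 3 YABBY genes with the lowest K4me3 cover in 35S::ULT1 had lower H3K27me3 density there, and so had YAB3, whose K4me3 cover stayed high. At YAB3 the density was 40.5 and 45.0 in Ler and 35.0 and 36.4 in 35S::ULT1, a difference not called by limma. After centring, limma adjusted p was 0.0572 for YAB1, 0.0755 for YAB5 and 0.0909 for YUC2, which were then no longer called. No listed gene was called in ult1-2 or ult1-3.

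Outside the lists, the segments of smallest p in 35S::ULT1 were at AT5G26010, AT5G02090, HRS1, a regulator of the phosphate starvation response, LBD22 and AT3G61898. At AT5G26010 the density was 50.9 and 58.6 in Ler and 18.2 and 20.7 in 35S::ULT1 (-1.49 log2, SE 0.10, limma adjusted p 0.00165). HRS1 had 50.2 and 54.6 in Ler and 30.6 and 29.8 in 35S::ULT1 (-0.79, SE 0.07, limma adjusted p 0.00187). LBD22, which had no H3K27me3 peak in ref6-3, had 30.9 and 30.0 in Ler and 50.5 and 48.6 in 35S::ULT1 (0.70, SE 0.07, limma adjusted p 0.00275). LBD22 in 35S::ULT1 was above all 6 other libraries of the Ler family.

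In the ult1 alleles few segments differed in H3K27me3 density. limma called 1 higher and 3 lower in ult1-2, against 0.077% and 0.185% of all pieces, and 2 higher and 8 lower in ult1-3, against 0.416% and 0.785%. AT5G55560 and AT5G11230 were lower in both alleles. At AT5G55560 the density was 48.9 and 54.9 in Ler, 36.7 and 35.1 in ult1-2 and 31.3 and 31.5 in ult1-3 (limma, adjusted p 0.0329 and 0.00352). At AT5G11230 it was 52.4 and 56.4 in Ler, 39.2 and 40.1 in ult1-2 and 40.1 and 38.8 in ult1-3 (limma, adjusted p 0.0338 and 0.0139). At both, the 35S::ULT1 densities lay above all 4 ult1 libraries, at 59.6 and 58.9 for AT5G55560 and 56.3 and 56.6 for AT5G11230. The largest change among those called in ult1-2 was at AT3G50190, with 45.1 and 44.9 in Ler and 23.2 and 25.2 in ult1-2 (-0.90 log2, SE 0.06, limma adjusted p 0.0014), and it was not shared by ult1-3, with 46.4 and 43.9. RLP19, a receptor-like protein gene, was higher in ult1-2, with 41.5 and 46.7 against 28.5 and 27.6. In ult1-2 there was 1 call without Ler library 3, without ult1-2 library 1 or without either 35S::ULT1 library, and there were 2 without ult1-2 library 3 and 7 without ult1-3 library 1. In ult1-3 there was 1 call without either Ler library, and there were 6 without either 35S::ULT1 library and 17 without ult1-3 library 3. In ult1-3 the lower ones also included AT4G03965, AT4G32990 and a segment without a protein-coding gene on chromosome 5 (9518801 to 9519400).

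K4me3 peak read density differed at no segment by limma. It called 0 of 852 in each genotype, with 0% of all 14603 pieces, and 5, 18 and 15 at an unadjusted p under 0.05 in ult1-2, ult1-3 and 35S::ULT1. edgeR on the same reads also called 0, with 7, 26 and 22 at an unadjusted p under 0.05.

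The paired-end lists asked what became of H3K27me3 when PRC2 lacked CLF or SWN, alone or with ult1-3. There is 1 list per genotype, so these values have no replicate check and no test. In the paired-end Col-0 list H3K27me3 stayed at 920 segments (72.2%, against 69% of all Col-0 H3K27me3 pieces). It was present at 981 in swn-7 (77%, against 77.7%), 871 in clf-28 (68.4%, against 49.9%) and 816 in ult1-3 (64.1%, against 62.2%). In ult1-3 swn-7 it was present at 886 (69.5%, against 75.2%) and in ult1-3 clf-28 at 473 (37.1%, against 31.2%).

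**Figure D5:**
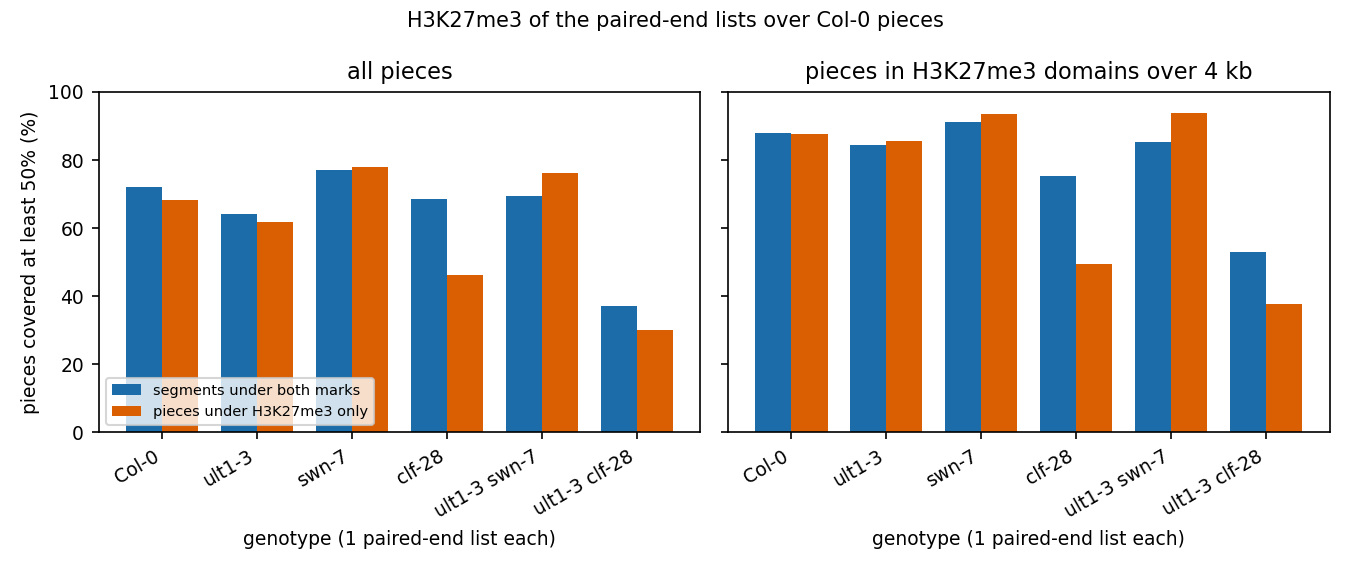
Share of pieces covered at least 50% by H3K27me3 in each paired-end list (y axis) by genotype (x axis), for segments under both marks and pieces under H3K27me3 alone, over all pieces (left) and over those in Col-0 H3K27me3 domains wider than 4 kb (right). The bars differ most in clf-28, with 68.4% against 46.3% on the left and 75.3% against 49.3% on the right.

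The shares of segments and of pieces under H3K27me3 alone lay furthest apart in clf-28. Segments had a median width of 800 bp and a mean of 93.1% of their length in genes, against 2200 bp and 48.1%. The median peak was 1800 bp in the clf-28 list and 2600 bp in the paired-end Col-0 list. The clf-28 list also covered 5.77% of pieces under K4me3 alone, against 2.33% in paired-end Col-0. The part of these differences was not tested. Of the 920 segments with H3K27me3 in the paired-end Col-0 list, 80.9% kept it in clf-28, against 61% of 4472 pieces under H3K27me3 alone. In ult1-3 clf-28 these shares were 49.7% and 42.1%, in ult1-3 swn-7 89.3% and 94.9%, in swn-7 96% and 96.9%, and in ult1-3 83.9% and 84.5%. Of the 354 segments without H3K27me3 in the paired-end Col-0 list, 127 had it in clf-28 (35.9%, against 14.8% of 2074 pieces under H3K27me3 alone). The shares were 27.7% and 36.7% in swn-7, 18.1% and 36.4% in ult1-3 swn-7, 12.4% and 13.1% in ult1-3. They were 4.52% and 4.1% in ult1-3 clf-28. Within domains over 4 kb, clf-28 covered 75.3% of segments and 49.3% of pieces under H3K27me3 alone. H3K27me3 was present in all 6 lists at 429 segments (33.7%, against 25% of pieces under H3K27me3 alone) and in none at 152 (11.9%, against 14.4%). It was missing from both lists with clf-28 and present in the other 4 at 107 segments (8.4%, against 17.6%). It was missing from ult1-3 clf-28 alone at 188 segments (14.8%, against 11.2%).

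Leaf and meristem genes were among those that kept H3K27me3 in all 6 lists. Of the 40 listed genes, 21 did, against 33.7% of all segments, including 7 of 10 leaf polarity genes and 6 of 7 meristem genes. Cover was 100% in every list at YAB1, YAB2, YAB3, YAB5, LAS, KNAT2, KNAT6, PNY, WOX1, SHR and DOG1. Of the 8 auxin genes, YUC2 and YUC6 did. Cover at PIN2 was 100% in 5 lists and 0% in ult1-3 clf-28, and at YUC8 it was 100% in Col-0, swn-7, clf-28 and ult1-3 swn-7 and 0% in both ult1-3 and ult1-3 clf-28. ULT1 itself had 100% in Col-0, swn-7, clf-28 and ult1-3 clf-28, 50% in ult1-3 swn-7 and 0% in ult1-3.

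Among genes with a symbol, the widest segments covered in all 6 lists were at KCS10, TCP2 and RD22. KCS10 is a gene of cuticular fatty acids and RD22 a gene induced by drying. At KCS10 cover was 100% in 4 lists, 66.7% in clf-28 and 91.7% in ult1-3 clf-28. Other segments were missing from both lists with clf-28 and present in the other 4. Of those at genes with a symbol, the widest were at PBP1 and JAL31, RBCS2B and CSLB03. RBCS2B is a small subunit of Rubisco with near-identical tandem copies, and CSLB03 is a cellulose synthase-like gene. The 2600 bp segments at AT1G51805 and AT1G61300 had the same pattern. AT1G51805 cover was 92.3% to 100% in the 4 lists and 0% in both with clf-28. AT1G61300 cover was 53.8% to 84.6% in the 4, 38.5% in clf-28 and 0% in ult1-3 clf-28. At PBP1 and JAL31 cover was 100% in 4 lists, 33.3% in clf-28 and 0% in ult1-3 clf-28. CSLB03 had 100% in 4 lists and 0% in both lists with clf-28. Among genes with a symbol, the widest segments missing from all 6 lists were at PDF2, a homeobox gene of the epidermis, MYB74 and CYP71B13. H3K27me3 cover was nevertheless 100% at each in all 12 single-end libraries. KNAT1 was likewise at 0% in all 6 paired-end lists and at 100% in all 12 single-end libraries.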

How the data were processed

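The deposited data were peak lists of 36 ChIP libraries of seedlings 8 days old, in the groups given above. The submitters' processing notes name TAIR10 as the build. Per the submitters' processing notes, programs used were CASAVA 1.8.2 with BWA 0.6.2-r126 and 0.7.17-r1188, SAMtools 0.1.19 and 1.16.1, Picard 1.93 and 2.26.10, bedtools 2.17.0-97 and 2.30.0, plus SICER 1.1. What each program did, with which parameters, and how the paired-end libraries were merged is, in the sources used here, not given. Deposited by the authors were 24 single-end lists, 1 per library, whose columns were read from the values as a raw read count in the peak and the q-value (adjusted p-value) of that peak, and 6 paired-end lists with 1 whole number per peak, taken as the authors' score of unstated unit and not used. All lists lie on windows of 200 bp. For 2 K4me3 lists (Ler and ult1-2) the library number of the list differs from the labels, so they were matched to the genotype only, and library numbers here are those of the lists. No column was without a sample (0).

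Segments and single-mark pieces were intersections of lists, computed with Python 3.11.15, numpy 2.4.6 and pandas 2.3.3, with figures by matplotlib 3.10.9. Cover is the percent of a segment under peaks. limma 3.58.1 (R 4.3.3) was fitted over all pieces of a mark in the 8 Ler-family libraries, on cover, with the variance raised to at least that of 1 window, and on log2 peak read density, with Benjamini-Hochberg adjustment and a threshold of 0.05. Cover was fitted over pieces covered in at least 1 of the 8 libraries and density over those covered at least 50% in all 8. The variance floor makes small cover changes hard to call. edgeR 4.0.16 was an alternative on the read counts of the peaks, which are whole peaks and wider than the segment. The tests were checked on simulated data. The depth outside peaks is unknown, and intervals for counting error were not made.

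Genes came from a RefSeq table of assembly TAIR10.1, which has no strand. It was used for names and overlap only, after the shift that best aligned K4me3 peaks with genes was 0 in 102 of 103 windows and 100 bp in the other. Of 289 list entries 284 matched. Region sequence was not used here. The named genes were the list members, the widest segments, the widest that lost a mark in each genotype, the smallest adjusted p in each test and the widest of 3 paired-end patterns, except where a choice after the counts is stated. Among segments that lost a mark and in the paired-end patterns, genes with a symbol were taken first. Wider segments at genes without one can be left out. The members and gene lists were chosen with earlier results of these data known. Values of 2 genes that this rule names are not reported here.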

Additional observations from a re-analysis of the deposited data

How the results depend on the processing

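All 88 alternatives kept the counts of segments that kept a mark within 1.5 times, and 46 of 70 did so for the counts of losses. A stricter peak threshold moved none of the 10 loss counts by over 1.5 times. With equal numbers of peaks, losses of H3K27me3 were 134 in Ler, 130 in ult1-3, 137 for 35S::ULT1 and 94 for ref6-3, and losses of K4me3 were 226 in Ler, 180 for ult1-2, 211 for ult1-3, 209 for 35S::ULT1 and 76 for ref6-3. At 80% cover they were 91 for H3K27me3 in ref6-3, and for K4me3 216 in Ler, 191 for ult1-2, 196 for ult1-3, 168 for 35S::ULT1 and 32 for ref6-3. With segments of at least 600 bp, K4me3 losses in ref6-3 were 10. The cause of these moves was not tested.

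With 1 library left out of a genotype, losses of H3K27me3 ranged from 97 to 152 in ult1-2, 83 to 154 in ult1-3 and 62 to 103 in ref6-3, the higher value in each being without the library numbered 3 or 2. Losses of K4me3 ranged from 136 to 274 in Ler, 143 to 287 in ult1-2, 118 to 314 in ult1-3, 105 to 289 for 35S::ULT1 and 21 to 53 for ref6-3, again with the higher value without library 3 or 2. Segments numbered 1349 to 1524 without 1 Col-0 library.

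Counts of limma calls with 1 library left out ranged, for H3K27me3 density, from 1 to 7 in ult1-2, 1 to 17 in ult1-3 and 44 to 381 in 35S::ULT1, and for K4me3 cover from 0 to 37 in ult1-2, 0 to 55 in ult1-3 and 0 to 3 in 35S::ULT1. The 37 arose without ult1-2 library 3 and the 55 without ult1-3 library 3. With 1 library in a genotype, the fit assumes that it varies like the others. Without the variance floor limma called 21, 22 and 30 segments for H3K27me3 cover in ult1-2, ult1-3 and 35S::ULT1, and 2 and 4 for K4me3 cover in ult1-2 and 35S::ULT1. With pieces of at least 600 bp the K4me3 cover calls were 4, 6 and 2 in ult1-2, ult1-3 and 35S::ULT1. edgeR, chosen after seeing the data, called 1 segment for H3K27me3 density in ult1-2.

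With the library number as a replicate block, limma called 14 segments for H3K27me3 density in ult1-2, and 5, 8 and 3 for K4me3 cover in ult1-2, ult1-3 and 35S::ULT1. No other count moved by over 1.5 times. Nothing in the labels makes a number a pairing. Deviations of same-numbered libraries correlated from -0.12 to 0.47 for H3K27me3 and from 0.40 to 0.56 for K4me3 in every pair of genotypes. Depth before peak calling is unknown, so a missing peak is one not called at the authors' threshold and not an absent mark. With 2 libraries per genotype a difference has to be large against the spread to pass.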
